A study of Mus musculus with 360 samples.

Results

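Prrx1, Ctsk, Lepr, Cxcl12, Pdgfra, Pdgfrb, Nt5e, Pdpn, Mcam and Ly6a are 10 genes whose products are used to recognise skeletal and suture stem or progenitor cells, and they were followed here as mRNA in sorted cells of the mouse skull sutures and growth plate. They were chosen by name, as 10 of the 24015 genes of the deposited count tables, by a rule that uses no measured value. Reads had been counted per gene in 360 individually sorted cells of wild type CD-1 mice at postnatal day 3 (pN3), by a full-length SMART-seq2 protocol. PF, SAG and COR stand for the posterior frontal, sagittal and coronal sutures, fibrous joints between the flat bones of the skull, and further cells came from the growth plate (GP) of the tibia, the cartilage layer that lengthens a long bone and the reference tissue of the study. Each suture sample held bone-forming edges and fibrous tissue together with the membranes on both faces, the periosteum and the dura. All 4 groups were of 1 strain and age, none was treated, and all had passed the same sort, which selected CD51+;CD200+ cells and removed cells with the blood proteins CD45 and Ter119, the endothelial protein Tie2, either form of Thy1 (Thy1.1, Thy1.2), CD105 or 6C3.

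No single gene marks a skeletal stem cell in every bone, and the markers were introduced by different lines of work. Prrx1 encodes a homeobox transcription factor of early limb and skull mesenchyme, Ctsk a collagen-degrading cysteine protease known best from osteoclasts and also active in periosteal cells, and Lepr and Cxcl12 the leptin receptor and a chemokine that together mark the stromal cells around marrow vessels. Pdgfra and Pdgfrb encode the receptors for platelet-derived growth factors, Nt5e the surface enzyme CD73 that makes adenosine, Pdpn the mucin-like glycoprotein podoplanin, Mcam the adhesion molecule CD146 of perivascular cells, and Ly6a the membrane-anchored protein Sca-1.

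In the mm9 build, by the GENCODE annotation, Prrx1 lies at chr1:165175247-165243841 and Ctsk at chr3:95303208-95313284. Lepr is at chr4:101390009-101487957, Cxcl12 at chr6:117118553-117131385, Pdgfra at chr5:75548316-75594229 and Pdgfrb on chromosome 18. Nt5e is at chr9:88222447-88266927, Pdpn at chr4:142857334-142889467 and Mcam at chr9:43942552-43950810, where 17 of its exon bases overlap the gene Gm10687. No other of the 10 genes overlaps an annotated gene in its exons.

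The analysis used the 325 cells with at least 500 genes read and at least 10000 reads, which were 87 PF, 74 COR, 78 GP and 86 SAG cells on 2 plates per tissue. No animal was named for any cell, so each tissue counted as 1 sample and no difference below has a test or a p-value. Plate and tissue cannot be told apart, since each plate held 1 tissue, and 112 of the 140 well names recurred in more than 1 tissue. Levels are in CPM, which is the reads of a gene per 1000000 reads other than the ribosomal transcript Rn45s, summed over the cells of a plate or tissue. SAG plate 2 stood apart, with 86.8% of its reads from Rn45s against 20.2% to 30.96% on the other 7 plates, and a median of 875 genes per cell against 2112 to 3867, so results that rest on it are also given for the 269 cells outside it. The median cell held 312083 reads other than Rn45s in PF, 448803 in COR, 184673 in SAG and 369308 in GP. Intervals are exact 95% intervals and cover counting error only, because the reads carried no molecular identifiers.

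The mRNAs of the 2 proteins selected by the sort were read in part of the cells. Itgav, which encodes CD51, was read in 32 PF, 45 COR, 35 GP and 16 SAG cells, and Cd200 in 39, 41, 38 and 29 cells in the same order of tissues. Among the genes of proteins removed by the sort, Tek, which encodes Tie2, had a read in 0 cells, and any of the 5 genes (Ptprc, Tek, Thy1, Enpep and Eng) was read in 13 PF, 11 COR, 4 GP and 9 SAG cells. The endothelial genes Pecam1, Cldn5, Emcn, Flt1 and Tie1 also had 0 cells, and any of the 9 genes of the endothelial list was read in 8 PF, 8 COR, 5 GP and 6 SAG cells.

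Prrx1 and Ctsk were the most widely read of the 10 genes. At least 1 read of Prrx1 was found in 64.4% of the cells in PF (95% interval 53.4 to 74.4), 79.7% in COR (68.8 to 88.2), 70.5% in GP (59.1 to 80.3) and 64% in SAG (52.9 to 74). On plates 1 and 2 the shares were 55.9% and 69.8% in PF, 75% and 81% in COR, 70% and 60.7% in SAG and 70% and 70.7% in GP. COR was highest on both plates, by less than the difference between the plates of PF, and the 4 intervals overlapped.

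The level of Prrx1 was 147 CPM in PF, 170 in COR, 667 in SAG and 221 in GP. The high value of SAG came from plate 2, with 997 CPM against 172 on SAG plate 1, and the other plates lay between 81.1 CPM on PF plate 1 and 223 on GP plate 2. This high value also depended on leaving Rn45s out of the total. With Rn45s counted, the pooled log2 ratio was 0.07 instead of 1.96 for SAG over COR. It was -0.22 instead of 1.59 for SAG over GP, and -0.29 instead of -2.17 for PF over SAG. Both GP plates were above both plates of PF and of COR, by a pooled log2 ratio of -0.59 for PF over GP. The top cell of a tissue gave 6.72% to 9.20% of its Prrx1 reads. Its paralog Prrx2 was read in fewer cells, 32 PF, 39 COR, 30 GP and 19 SAG.

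Ctsk was read in 74.7% of the cells in PF (64.3 to 83.4), 90.5% in COR (81.5 to 96.1), 69.2% in GP (57.8 to 79.2) and 34.9% in SAG (24.9 to 45.9). The plates of SAG were far apart, at 90% and 5.36%, and the other plates were at 76.5% and 73.6% in PF, 93.8% and 89.7% in COR and 75% and 67.2% in GP. The low share of SAG came from plate 2, and SAG plate 1 lay with COR at the top.

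Ctsk was the most abundant of the 10 mRNAs per length in every tissue, at 504 CPM per kb of exon in PF, 321 in COR, 152 in SAG and 474 in GP. Cxcl12 was the next in PF, COR and GP at 78.3, 43.5 and 87.2 CPM per kb, and Lepr the last in those 3 tissues at 4.10, 1.13 and 5.67 CPM per kb. This order did not hold on every plate. On SAG plate 2 Ctsk was at 22.5 CPM per kb, below Prrx1 at 90.1. Cxcl12 ranked 9 of the 10 on COR plate 1 and 6 on GP plate 1, and 1 cell gave 83.1% of its reads in GP. The levels of Ctsk without the division by length were 538 and 798 CPM on the plates of PF, 427 and 481 in COR, 515 and 33.3 in SAG and 1081 and 624 in GP. PF and GP overlapped, and both plates of PF and of GP lay above both plates of COR, by a pooled log2 ratio of 0.65 for PF over COR (range of the 4 plate comparisons 0.16 to 0.90).

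Osteoclast genes were read in similar shares of the cells with and without Ctsk. Calcr, Dcstamp and Ocstamp, which are known from mature osteoclasts, had reads in 0 of 325 cells, Oscar and Tnfrsf11a in 1 cell each and Atp6v0d2 in 2. Mmp9 was read in 62 cells, 43 of them SAG, and Acp5 in 54. Outside SAG plate 2, a read of any of the 9 osteoclast genes was found in 38.5% of cells with Ctsk and in 33.9% of cells without it. Tendon and fibrous tissue genes, among them Tnmd and Fmod, moved with Ctsk, with a median summed level of 2634 CPM in the 213 cells with Ctsk and 0 CPM in the 56 without. The osteoblast list had a median of 59503 CPM in the cells with Ctsk and 23941 CPM in those without. Cells with Ctsk also had more genes read, a median of 3063 against 2229. These differences pool tissues, and the part of tissue or depth in them was not tested.

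The genes whose levels went most with Ctsk over the 269 cells, after the mean of each plate was subtracted, were those of secreted and matrix proteins. Pearson's r on log2(CPM + 1) was 0.604 for Bgn, which encodes the proteoglycan biglycan, 0.593 for Serpinf1 and 0.590 for the gelatinase gene Mmp2, among 8150 genes compared. Bgn also led for Prrx1 with r = 0.395, followed by the proteoglycan gene Lum and the collagen gene Col12a1 at 0.373 each. These correlations describe cells that share plates and depth, and r between Ctsk and the log2 number of genes of a cell was itself 0.330.

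**Figure D1:**
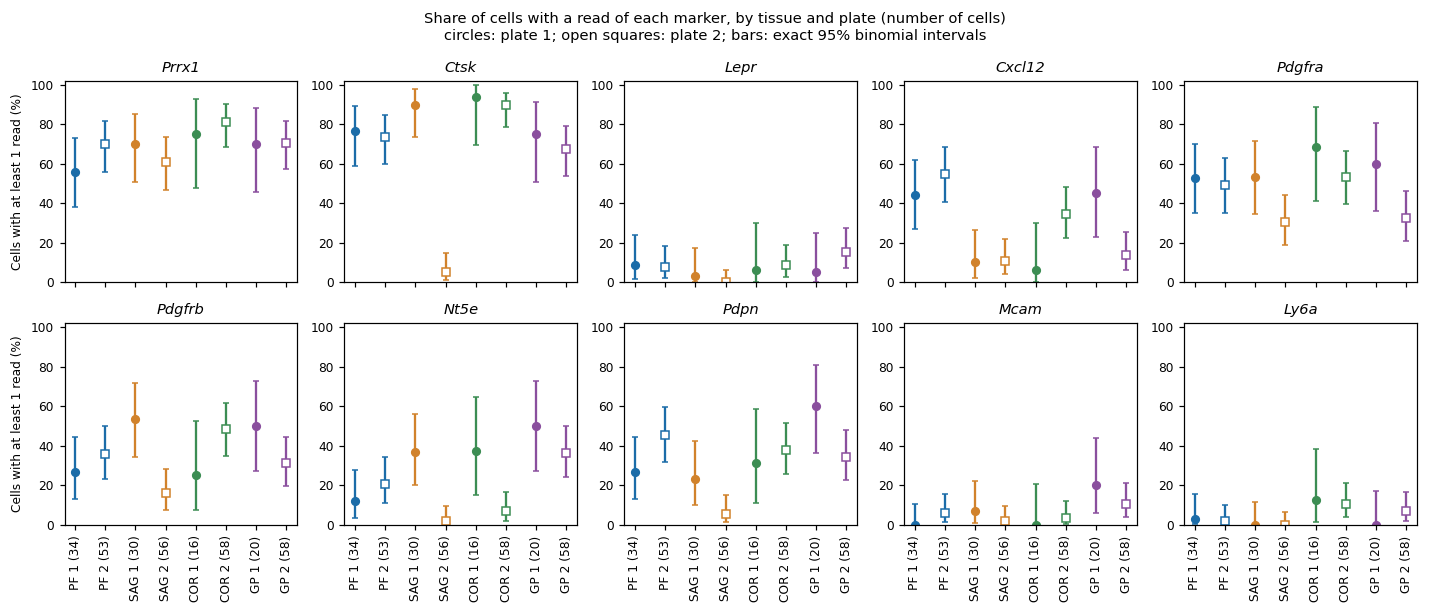
Share of cells with at least 1 read of each of the 10 genes (vertical axis, percent), for plates 1 (filled circles) and 2 (open squares) of each tissue, with the number of cells in brackets and exact 95% binomial intervals as bars. Ctsk is at 90% on SAG plate 1 and 5.36% on SAG plate 2, while Lepr, Mcam and Ly6a are at or below 20% on every plate.

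Lepr was rare in all 4 tissues. It was read in 10 of 78 GP cells (12.8%, 6.32 to 22.3), 7 of 87 PF cells (8.05%, 3.30 to 15.9), 6 of 74 COR cells (8.11%, 3.03 to 16.8) and in 1 of 86 SAG cells (1.16%, 0.0294 to 6.31). Its level on plates 1 and 2 was 15.7 and 32.1 CPM in PF, 2.78 and 8.58 in COR, 0.291 and 0 in SAG and 7.89 and 46.7 in GP. Both SAG plates were below all 6 others, and both PF plates were above both COR plates. The level in SAG rested on 2 reads, so PF was 249-fold higher with a counting interval of 68.6 to 2055, COR 68.8-fold (18.8 to 571) and GP 344-fold (94.9 to 2841).

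Few cells carried most of the Lepr reads. In PF, 1 cell held 73.3% of 875 reads, in COR 1 cell held 64.8% of 256, and in GP the top cell held 23.1% of 1137. The level among the cells with a read had a median of 147 CPM in PF, 94.2 in COR and 315 in GP. Lep, the gene of the ligand leptin, had a read in 0 cells. Lepr was accompanied by reads of the pericyte or smooth muscle list in 70.8% of its 24 cells outside SAG plate 2, against 54.3% of the other 245, and by reads of the adipogenic list in 20.8% against 16.7%. Such shares pool tissues, and the part of tissue or depth in them was not tested. Adipoq, the adiponectin gene that marks adipocytes and many marrow stromal cells of older mice, had 0 cells.

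Cxcl12 was read in a larger share of PF cells than of the cells of the other sutures. The shares were 50.6% of the cells in PF (39.6 to 61.5), 28.4% in COR (18.5 to 40.1), 21.8% in GP (13.2 to 32.6) and 10.5% in SAG (4.90 to 18.9). The plates were at 44.1% and 54.7% in PF, 6.25% and 34.5% in COR, 10% and 10.7% in SAG and 45% and 13.8% in GP. Both PF plates lay above both SAG and both COR plates, and GP plate 1 lay with PF.

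The level of Cxcl12 was 556 and 661 CPM on the PF plates, 1.85 and 395 in COR, 8.15 and 120 in SAG and 165 and 828 in GP. PF had the closest plates, and those of COR were the farthest apart. In GP, 83.1% of 20303 reads came from 1 cell of plate 2 with 16862 reads, or 32966 CPM, whereas the median cell with a read in GP had 238 CPM and that in PF 727. That cell had 3985 genes read, among them Prrx1, Lepr, Pdgfra, Pdgfrb and Nt5e of the 10. Of 21 other stem and progenitor genes it had 8, which were Nes, Vcam1, Ddr2, Cd44, Cd164, Kitl, Ebf3 and Foxc1. It also had reads of 6 osteoblast, 5 chondrocyte, 3 tenocyte and 4 pericyte or smooth muscle genes, and its cell type was not tested. The pooled log2 ratio of Cxcl12 for PF over GP was -0.15, and 1.94 with the top cell of each tissue left out.

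The receptors of the CXCL12 protein were read seldom. Cxcr4, its signalling receptor on blood and stem cells, was read in 1 PF and 1 SAG cell. Ackr3, the scavenging receptor, was read in 7 PF, 7 COR, 16 GP and 6 SAG cells. Ackr3 was higher in GP than in PF in every plate comparison and by at least 1 on the log2 scale. The genes whose levels went most with Cxcl12 were Atp1b1 (r = 0.385), Shisa3 (0.383) and Steap4 (0.378), and for Lepr the highest was Sepp1 (0.287), a selenium transport gene.

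**Figure D2:**
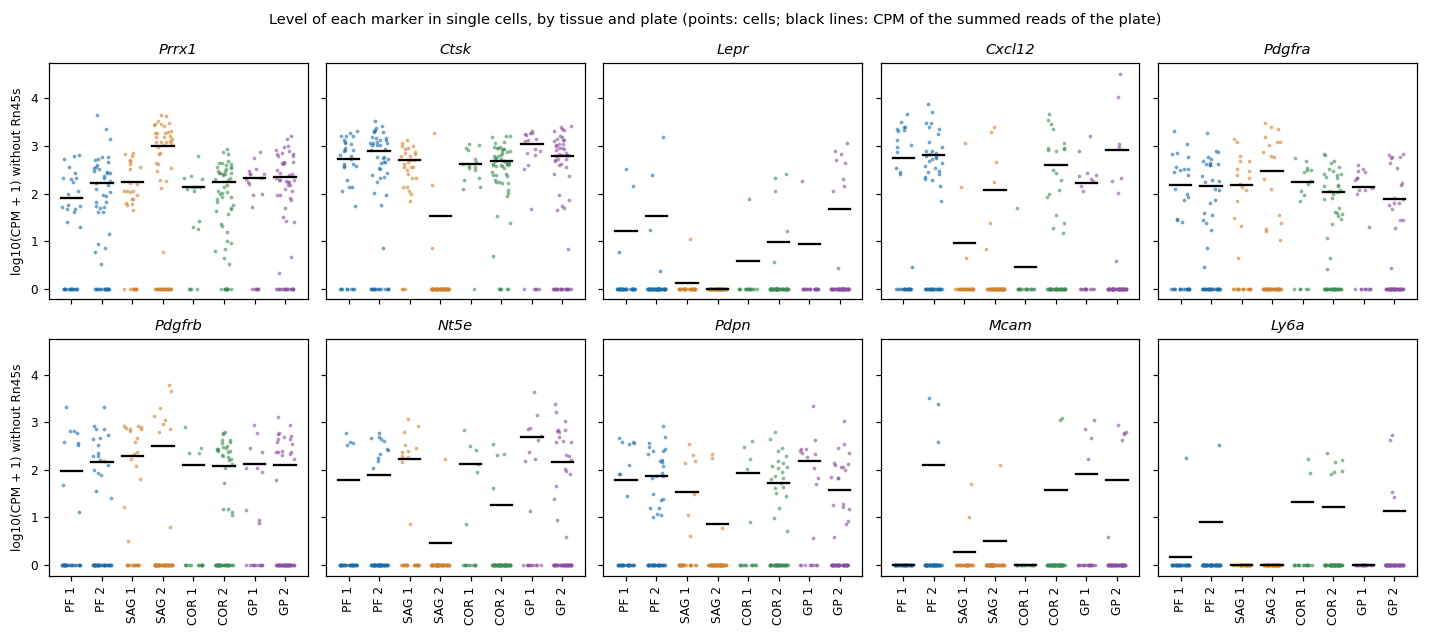
Level of each gene in single cells on the scale log10(CPM + 1), without Rn45s, for plates 1 and 2 of each tissue. Points are cells, and black lines are the level of the summed reads of the plate. In Cxcl12 on GP plate 2, 1 point at 32966 CPM stands far above the rest and sets the line of 828 CPM.

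Pdgfra was read in 50.6% of the cells in PF (39.6 to 61.5), 56.8% in COR (44.7 to 68.2), 39.7% in GP (28.8 to 51.5) and 38.4% in SAG (28.1 to 49.5). The plates were at 52.9% and 49.1% in PF, 68.8% and 53.4% in COR, 53.3% and 30.4% in SAG and 60% and 32.8% in GP, so the tissues overlapped except that both COR plates were above both plates of PF and of SAG, by a small margin. Its level was 150 and 143 CPM in PF, 174 and 105 in COR, 151 and 301 in SAG and 134 and 75.9 in GP. GP was the lowest and both of its plates were below both PF plates.

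Pdgfrb, the receptor gene of pericytes and other perivascular and fibroblastic cells, was read in 32.2% of the cells in PF (22.6 to 43.1), 43.2% in COR (31.8 to 55.3), 35.9% in GP (25.3 to 47.6) and 29.1% in SAG (19.8 to 39.9). On the plates the shares ran from 16.1% on SAG plate 2 to 53.3% on SAG plate 1, with 26.5% and 35.8% in PF, 25% and 48.3% in COR and 50% and 31% in GP. The levels were 92 and 146 CPM in PF, 126 and 122 in COR, 193 and 309 in SAG and 133 and 125 in GP. COR and GP were the closest pair, with a pooled log2 ratio of -0.05 (plate range -0.12 to 0.01), and both SAG plates were above all others.

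Of the ligand genes, Pdgfa, whose protein binds the product of Pdgfra, was read in 28 PF, 23 COR, 27 GP and 8 SAG cells. Pdgfc, another ligand of that receptor, was read in 14, 18, 23 and 12 cells. Pdgfd, a ligand of the Pdgfrb product, was read in 16, 11, 7 and 4 cells, and Pdgfb, the main ligand of that receptor and a product of endothelial cells and platelets, in 1 GP cell. Pdgfd was higher in PF than in COR, SAG or GP, and Pdgfc was higher in GP than in PF or COR, by at least 1 on the log2 scale and on every plate comparison.

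Outside SAG plate 2, the 104 cells with Pdgfrb and the 165 without it differed in their bone and tendon genes. A read of any osteocyte gene, such as Dmp1 or Phex, was found in 2.88% of cells with Pdgfrb and 19.4% of those without. The median summed level of the tendon list was 3340 CPM with Pdgfrb and 880 CPM without. For Pdgfra the osteocyte list was read in 15% of the 133 cells with a read and 11% of the others, and the tendon list had medians of 2634 CPM with Pdgfra and 1216 CPM without. All of these comparisons pool tissues, and the part of tissue or depth in them was not tested. The genes most like Pdgfrb were Igfbp7 (r = 0.382), Il11ra1 (0.360) and Igfbp4 (0.344), and those most like Pdgfra were the growth factor gene Igf1 (0.302) and Bgn (0.293).

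Nt5e was read in a larger share of GP cells than of the cells of any suture. The shares were 17.2% of the cells in PF (9.98 to 26.8), 13.5% in COR (6.68 to 23.5), 39.7% in GP (28.8 to 51.5) and 14% in SAG (7.42 to 23.1). The plates were at 11.8% and 20.8% in PF, 37.5% and 6.90% in COR, 36.7% and 1.79% in SAG and 50% and 36.2% in GP. Plates 1 of SAG and COR thus reached the lower GP plate, and plates 2 did not.

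The level of Nt5e was 60.4 and 78.8 CPM in PF, 133 and 16.9 in COR, 164 and 1.84 in SAG and 493 and 148 in GP. Both GP plates were above both plates of PF and of COR, and the lower GP plate was below SAG plate 1. The top cell of a tissue gave 16.5% to 25.9% of its Nt5e reads. Of the partner enzymes, Enpp1, which makes AMP and pyrophosphate from ATP, was read in 21 PF, 27 COR, 28 GP and 18 SAG cells and Entpd1, which makes AMP by another route, in 2, 0, 3 and 1. The adenosine receptor gene Adora2b was read in 5 PF, 2 COR, 1 GP and 2 SAG cells. The 67 cells with Nt5e outside SAG plate 2 had a median of 4220 CPM of the tendon list against 1216 CPM in the other 202. Both medians pool tissues, and the tendon list was itself highest in GP. Its summed level was 8289 CPM in GP, 3164 in PF, 1394 in COR and 4621 on SAG plate 1. The part of tissue or depth in this difference was not tested.

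Pdpn was read in 37.9% of the cells in PF (27.7 to 49), 36.5% in COR (25.6 to 48.5), 41% in GP (30.01 to 52.7) and 11.6% in SAG (5.72 to 20.3). The plates were at 26.5% and 45.3% in PF, 31.2% and 37.9% in COR, 23.3% and 5.36% in SAG and 60% and 34.5% in GP. SAG was the lowest on both plates, and PF, COR and GP overlapped. Its level was 60.7 and 71.7 CPM in PF, 85.9 and 51.4 in COR, 32.7 and 6.29 in SAG and 153 and 36.7 in GP.

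Podoplanin is also a protein of lymphatic endothelium, of osteocytes and of the meninges. Genes of lymphatic endothelium were read in 0 of the 99 cells with Pdpn outside SAG plate 2, and osteocyte genes in 10.1% of them against 14.7% of the other 170. Meningeal genes were read in 71.7% of cells with Pdpn and 38.8% of cells without, and the tendon list had medians of 4597 and 865 CPM. Tissues are pooled in these values, and the part of tissue or depth in them was not tested. The meningeal list was itself read in 55.1% of all GP cells, which come from the tibia, beside 56.3% in PF and 35.1% in COR. A read of that list was therefore not particular to the suture samples. Its summed level was 457 CPM in PF, 456 in COR, 150 in SAG and 128 in GP. The part of dural cells in the reads of Pdpn was not tested. Igf1 (r = 0.458) and the collagen gene Col14a1 (0.440) were most like Pdpn.

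Ly6a was read in the fewest cells, and its reads come from a gene family of close copies. It was found in 8 of 74 COR cells (10.8%, 4.78 to 20.2), 4 of 78 GP cells (5.13%, 1.41 to 12.6) and 2 of 87 PF cells (2.30%, 0.280 to 8.06), and in 0 of 86 SAG cells (0%, 0 to 4.20). A floor of 3 counts over the SAG cells would be a share of 3.49%. The plates were at 2.94% and 1.89% in PF, 12.5% and 10.3% in COR and 0% and 6.90% in GP. COR was the highest on both plates.

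Ly6a lies at chr15:74825308-74828064 on the minus strand of mm9, in 3 exons by the GENCODE annotation. Of its 770 stretches of 50 bases, 34 (4.42%) also occur in Ly6c2 or Ly6i, and how the authors' counting treated reads that match several genes was not given in the sources used here. The longest exact matches with those copies are shown because within them Ly6a and its copies cannot be told apart by sequence. Capitals mark the matching bases and lower case the 10 bases on each side in Ly6a, 5′ to 3′ along the transcript. The match with Ly6i has 80 bases of coding sequence, spans exons 1 and 2 at chr15:74826940-74827985, and that with Ly6c2 has 52 coding bases in exon 3 at chr15:74825713-74825764.
Ly6a, match with Ly6i: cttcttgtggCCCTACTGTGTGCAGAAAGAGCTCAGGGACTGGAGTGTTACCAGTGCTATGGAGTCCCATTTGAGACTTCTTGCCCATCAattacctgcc
Ly6a, match with Ly6c2: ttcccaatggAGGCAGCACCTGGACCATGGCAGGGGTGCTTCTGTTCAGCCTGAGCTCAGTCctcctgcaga

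The copies themselves were read in few cells. Ly6i had a read in 0 cells, Ly6c1 in 1 COR and 1 GP cell, and Ly6c2 in 1 PF, 1 COR and 3 GP cells. The more distant relative Ly6e, which shares no stretch of 50 bases with Ly6a, was read in 15 PF, 18 COR, 13 GP and 44 SAG cells.

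The level of Ly6a was 5.84 CPM in PF, 16.2 in COR and 10.7 in GP. Against a floor of 3 reads over all SAG cells, the level was 33.5-fold that floor in PF, 93.1-fold in COR and 61.5-fold in GP. These folds count reads, which are not independent within a cell, so they are not lower limits over cells. Without the top cell of each tissue the log2 ratio of PF over SAG was 0.14. In PF, 174 of 177 reads (98.3%) came from 1 cell and in GP 62% of 305 from 1 cell, whereas in COR the top cell held 29.8% of 520. The 8 COR cells were alike in level, from 81.8 to 229 CPM. The 14 cells with Ly6a had more genes read than the rest outside SAG plate 2, a median of 4109 against 2946.

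Mcam was read in 10 of 78 GP cells (12.8%, 6.32 to 22.3), 3 of 87 PF cells (3.45%, 0.717 to 9.75), 2 of 74 COR cells (2.70%, 0.329 to 9.42) and in 3 of 86 SAG cells (3.49%, 0.725 to 9.86). The plates were at 0% and 5.66% in PF, 0% and 3.45% in COR, 6.67% and 1.79% in SAG and 20% and 10.3% in GP. Its level was 101.7 CPM in PF, 33.4 in COR, 1.68 in SAG and 65.1 in GP, and in PF 68.5% of 3081 reads came from 1 cell. It had 29 reads in SAG.

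The 18 cells with Mcam fell into groups that differed in the genes of other cell types. In 10 of them (1 PF, 2 COR and 7 GP) Sox10, the transcription factor gene of neural crest glia, was also read, and these cells held 79% of all Mcam reads, with 420 to 3285 CPM each. Of 4 genes known from Schwann cells and glia (Sox10, Mbp, Cdh19 and Erbb3), which were chosen after the values were seen, 2 to 4 were read in each of the 10 cells at a summed 315 to 16000.1 CPM. Sox10 counts among the 4 by the choice of these cells. Of the others, Mbp was read in 9 of the 10 cells, Cdh19 in 7 and Erbb3 in 6. Their level of the pericyte or smooth muscle list was at most 8.69 CPM, no endothelial gene was read in them, and 6 of the 10 had no other gene of the studied set. Itgav was read in 7 and Cd200 in 6 of these cells, which had passed the sort.

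A further 4 cells with Mcam (2 PF and 2 GP) had 27717 to 100888 CPM of the pericyte or smooth muscle list. Acta2, Tagln, Myh11 and Notch3 were read in all 4, Rgs5 in 3, and Pdgfrb in all 4. Their osteoblast list was at most 896 CPM, and a gene of the endothelial list was read in all 4. These 4 were also all the cells of the data with at least 10000 CPM of that list, and they held 20.5% of the Mcam reads. The other 4 cells, 3 SAG and 1 GP, held 30 Mcam reads in all.

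**Figure D3:**
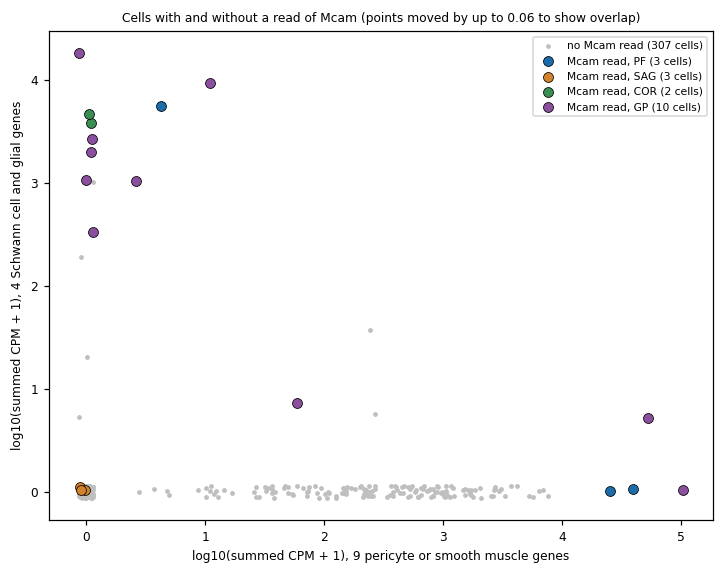
Summed level of 4 Schwann cell and glial genes (vertical axis) against that of 9 pericyte or smooth muscle genes (horizontal axis), both as log10(CPM + 1), in the 325 cells. Coloured points are the 18 cells with a read of Mcam, grey points the other 307. 10 of the coloured points lie at the upper left and 4 at the lower right.

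Sox10 was read in 11 cells, 1 PF, 2 COR, 7 GP and 1 SAG. Mcam was read in 10 of these 11 and in 8 of the other 314 cells (2.55%). Prrx1 was read in 0 of the 11 against 71.7% of the others, and Lepr, Nt5e, Pdpn and Ly6a also in 0. Ctsk was read in 2, Cxcl12 in 3, and Pdgfra and Pdgfrb in 1 each. Without the cells with Sox10, Mcam remained in 2 PF, 3 SAG, 0 COR and 3 of 71 GP cells (4.23%, 0.880 to 11.9), and its level was 32.7 CPM in PF, 0 in COR, 1.71 in SAG and 10.4 in GP.

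Cells of PF, COR and GP had a median of 4 of the 10 genes read and cells of SAG a median of 2. The mean was 3.41 in PF (SD over cells 1.60), 2.07 in SAG (1.52), 3.70 in COR (1.45) and 3.49 in GP (1.94). By plate the means were 3.06 and 3.64 in PF, 3.56 and 3.74 in COR, 3.47 and 1.32 in SAG and 4.35 and 3.19 in GP. SAG plate 1 thus lay with the other tissues. No cell had over 7 of the 10, and 20 of the 325 cells had none, 10 of them on SAG plate 2. After thinning to 100000 reads per cell, which 70 PF, 71 COR, 67 GP and 80 SAG cells reached without Rn45s, the means were 3.54, 3.64, 3.66 and 1.89.

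Most pairs of markers taken from different lines of work were read together in some cells. Outside SAG plate 2, 44 of the 45 pairs were read together in at least 1 cell. The exception was Lepr with Mcam, which were each read in few cells. The number of cells with both was compared with the number given by multiplying the 2 shares on each plate. Of the 28 pairs with a product of at least 10 cells, 21 were above it and 7 below, with ratios from 0.390 to 1.29 and a median of 1.12. The same count was not made for pairs of other genes, so these pairs cannot be set against a background. Cells with both of a pair also had more genes read than those with neither, for example 3216 against 1861 for Prrx1 and Ctsk, and the part of depth in these ratios was not tested.

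Prrx1 and Ctsk were read together in 170 of the 269 cells, against a product of 152. That was 89% of the cells with Prrx1 and 79.8% of those with Ctsk, and by tissue it was 44 PF, 58 COR and 48 GP cells and 20 cells of SAG plate 1. Adding Pdgfra left 100 of all 325 cells with the 3 genes. Pdgfra and Pdgfrb were read together in 60 cells against 52.2, Pdgfra and Nt5e in 42 against 32.5, and Cxcl12 and Pdgfrb in 42 against 32.8.

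Lepr and Cxcl12, which mark the same stromal cell in adult marrow, were read together in 10 cells against a product of 7.09, 6 of them PF, 1 COR and 3 GP. These were 41.7% of the cells with Lepr and 11.8% of those with Cxcl12. Lepr was read with Pdgfrb in 13 cells against 8.72 and with Nt5e in 3 against 6.03. With Ctsk and Prrx1, which are used to trace cells of the suture and periosteum, Lepr met in 18 and 16 cells against 18.4 and 17, close to the product.

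Pdgfra with Ly6a, the pair that defines a mesenchymal cell population of adult mouse marrow, was read in 5 COR cells (6.76%, 2.23 to 15.1), 1 GP cell and 0 PF and SAG cells. The 6 cells were 42.9% of the cells with Ly6a, and the product was 6.91. Pdpn with Nt5e and without Mcam, which at the protein level belongs to the definition of the human skeletal stem cell, was read in 17 GP cells (21.8%, 13.2 to 32.6), 6 COR (8.11%, 3.03 to 16.8), 5 PF (5.75%, 1.89 to 12.9) and 1 SAG cell (1.16%, 0.0294 to 6.31). Of these 29 cells, 25 also had a read of Cd164, the further marker of that definition. The share of Cd164 over the other cells was not set beside this, so it shows nothing particular to the 29. Without the condition on Mcam the number was 30. GP also had the highest pooled share of cells with Nt5e and with Pdpn, each taken singly. No product of the shares is set beside the numbers by tissue, so they show nothing particular to the combination.

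Mcam was read with several of the other genes in fewer cells than the product. It was read with Ctsk in 5 cells against a product of 12.8, with Prrx1 in 5 against 12.2, with Pdgfra in 1 against 7.97, with Pdpn in 2 against 7.05 and with Nt5e in 1 against 5.67. With Pdgfrb it was read in 7 cells against 6.97 and with Cxcl12 in 6 against 5.16. The 17 cells with Mcam outside SAG plate 2 had a median of 3006 CPM of the osteoblast list against 58137 CPM in the other 252, and 0 against 2118 CPM of the tendon list. Tissues are pooled in these medians, and the part of tissue or depth in them was not tested.

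Itgav and Cd200, the genes of the selecting pair of the sort, were read together in 71 of the 325 cells and in 70 outside SAG plate 2. Pdpn was read in 22.9% of those 70 cells and in 41.7% of the other 199. Ctsk was read in 85.7% against 76.9%, Ly6a in 11.4% against 3.02% and Mcam in 10% against 5.03%. These shares pool tissues that differed. All 7 of the 70 cells with Mcam were GP cells, and 5 of the 8 with Ly6a were COR cells. In GP alone Ctsk ran the other way, at 63.2% against 71.2%. The 70 cells had a median of 3356 genes and the others 2864.

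**Figure D4:**
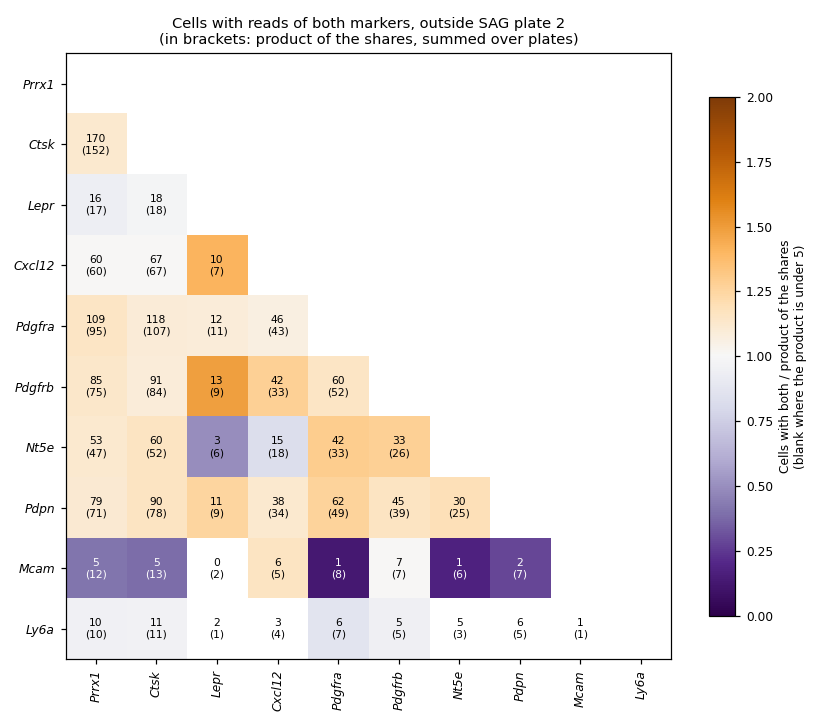
Number of cells outside SAG plate 2 with reads of both genes of each pair, with the product of the 2 shares in brackets. Colour gives the number divided by the product, from 0 (purple) over 1 (white) to 2 (brown), and is left out where the product is under 5. The row of Mcam holds the darkest purple fields, and Prrx1 with Ctsk has 170 cells against 152.

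To compare tissues, a gene was called past the rule where its pooled log2 ratio of CPM + 1 was at least 1 in size and all 4 comparisons of a plate of 1 tissue with a plate of the other had its sign. All 10 genes were among the 10950 genes with a read in at least 10 cells, which give the background. Where SAG plate 2 was left out, only 2 comparisons of plates remained. The rule asked for less there, so those counts are not like the counts with 4 comparisons. The comparisons of tissues share tissues and are not independent of each other.

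Between PF and COR, a suture that fuses early in life and another that remains patent, 2 of the 10 genes were past the rule, beside 12.1% of the background. Lepr was higher in PF with a log2 ratio of 1.73 (plate range 0.80 to 3.13), and Ly6a was higher in COR with -1.33 (-3.83 to -1.04). Cxcl12 had 0.85 (0.49 to 7.86), in 1 direction on all plates and below the fold of the rule. Nt5e had 1.36 and plate ratios of both signs (-1.13 to 2.16). The median over the 10 genes was 0.51 and over all genes 0.01.

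Between PF and SAG, 6 of the 10 genes were past the rule, beside 29% of the background. Ctsk (1.72), Lepr (4.74), Cxcl12 (3.07), Pdpn (1.98) and Ly6a (2.77) were higher in PF and Prrx1 (-2.17) in SAG. Without SAG plate 2, 5 of the 10 were past the rule, beside 33.1% of the background, and Ctsk (0.54) and Prrx1 (-0.22) were no longer among them. Cxcl12 then stood at 6.13 (5.93 to 6.18), Lepr at 4.53, Ly6a at 2.77 and Pdpn at 1.06, and Nt5e was higher in SAG with -1.12 (-1.43 to -1.05). The log2 ratio of Ly6a was 0.14 without the top cell of each tissue. Of the genes past the rule 5 were higher in PF and 1 in SAG, against 4 and 0 with Rn45s counted in the total and 5 and 2 with TMM factors. The median of the 10 genes was 1.85 against 0.33 for all genes, and 0.80 against 0.04 without SAG plate 2.

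Between SAG and COR, 4 of the 10 were past the rule, beside 31.1% of the background. Lepr (-3.01), Pdpn (-1.65) and Ly6a (-4.11) were higher in COR, and Pdgfrb was higher in SAG by 1.09 (0.61 to 1.33). Pdgfrb was at 0.83 without the top cell of each tissue. With Rn45s counted in the total, Pdgfrb turned to -0.79, and of the genes past the rule 0 were higher in SAG and 3 in COR. Without SAG plate 2, 3 of the 10 were past the rule, beside 31.4%: Lepr (-2.80) and Ly6a (-4.11) were higher in COR and Nt5e (2.48) in SAG. The medians of the 10 and of all genes were -1.36 and -0.37, and -0.36 and -0.05 without SAG plate 2. The ratios of Ly6a against SAG depend on the 1 CPM added to a level of 0, and setting Ly6a to its bound left the medians as they were.

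Between PF and GP, only Nt5e was past the rule, 1 of 10 beside 16% of the background. It was higher in GP, with a log2 ratio of -1.46 (-3.01 to -0.90). Between COR and GP, Nt5e was again the 1 gene past the rule, beside 13.1% of the background, with -2.82 (-4.79 to -0.15). Cxcl12 had -1.002 for COR over GP, and 1.08 without the top cell of each tissue. The medians of the 10 were -0.03 and -0.47 in these comparisons and those of all genes 0.08 and 0.07.

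Between SAG and GP, 7 of the 10 were past the rule, beside 29.9% of the background. Ctsk (-1.64), Lepr (-5.20), Cxcl12 (-3.22), Pdpn (-1.70) and Mcam (-4.62) were higher in GP, and Pdgfra (1.48) and Pdgfrb (1.05) in SAG. Pdgfrb was at 0.79 without the top cell of each tissue. With Rn45s counted, Pdgfra was at -0.32 and Pdgfrb at -0.75, and the 5 genes past the rule were all higher in GP. Without SAG plate 2, 3 of the 10 were past the rule, beside 32.6%: Lepr (-4.99), Cxcl12 (-6.29) and Mcam (-5.14), each higher in GP. The values of Mcam move with the 7 GP cells with Sox10, which held 85.5% of its reads in GP. The medians were -1.67 for the 10 genes and -0.30 for all genes, and -0.61 and 0.04 without SAG plate 2.

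Plates of the same tissue also differed. Between their own plates, 2 of the 10 genes differed by at least 1 on the log2 scale in PF, 4 in COR, 5 in SAG and 5 in GP, beside 41.7%, 34.7%, 75.4% and 38.6% of all genes.

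Among 21 other genes used as stem or progenitor markers, such as Gli1, Axin2 and Grem1, 2 were past the rule between PF and COR, 9 between PF and SAG, 8 between SAG and COR, 6 between PF and GP, 12 between SAG and GP and 10 between COR and GP. Of the 14 ligand, receptor and enzyme genes, 1, 2, 2, 4, 2 and 2 were past it in the same order, in which the background stood at 12.1%, 29%, 31.1%, 16%, 29.9% and 13.1%. Without SAG plate 2, 9 of the 21 genes were past the rule between PF and SAG, 8 between SAG and COR and 13 between SAG and GP, and 5, 2 and 1 of the 14, beside 33.1%, 31.4% and 32.6% of the background.

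**Figure D5:**
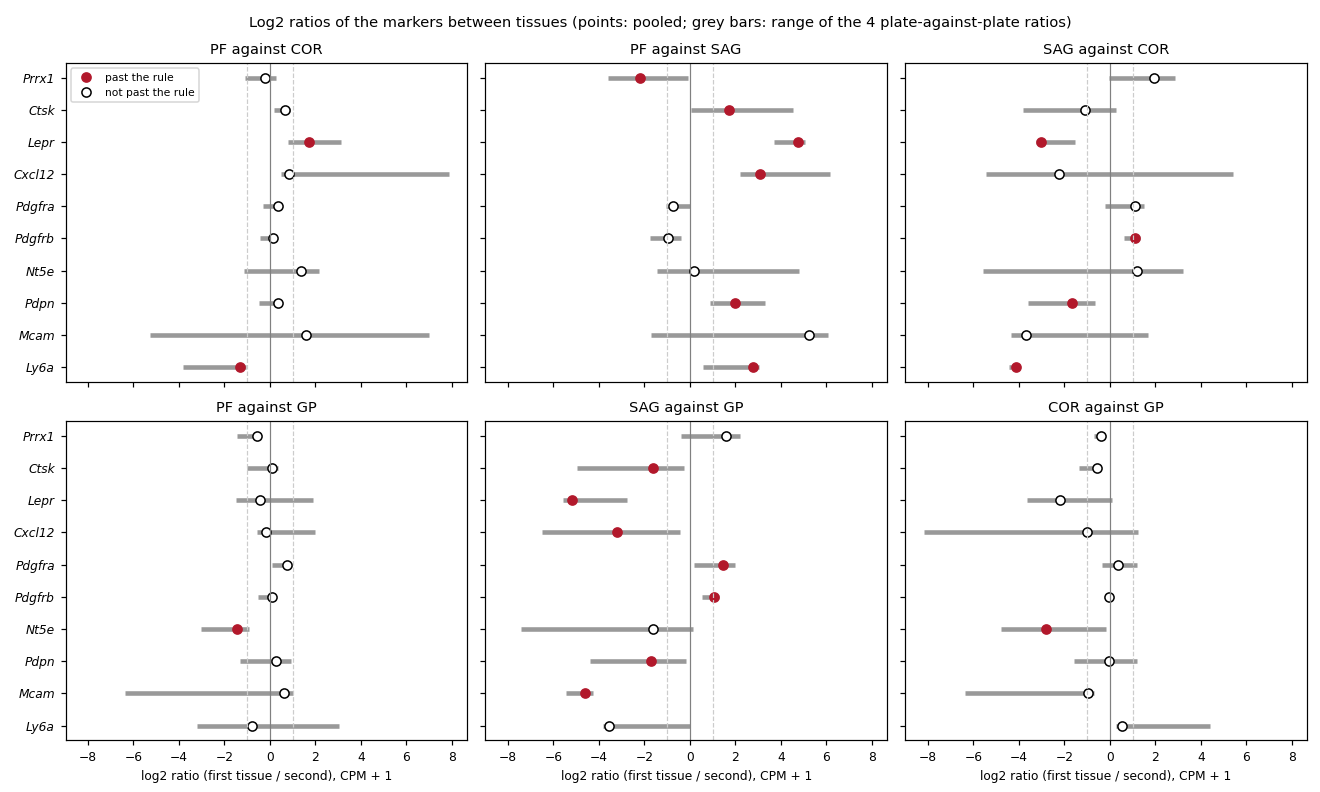
Log2 ratios of CPM + 1 between each pair of tissues (horizontal axis) for the 10 genes. Points are pooled values, filled where the gene was past the rule, grey bars span the 4 comparisons of plates, and dashed lines mark -1 and 1. Nt5e is the 1 filled point in PF against GP and in COR against GP, and the comparisons with SAG hold 4 to 7 filled points.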

How the data were processed

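The authors deposited raw counts of reads for each gene in 360 cells, in 8 tables, 1 per plate. The labels name mm9, STAR 2.5.3a, HTSeq, Seurat 2.3.0 and R 3.4.4. The gene annotation, the use of strand and the treatment of reads matching several genes were not given in the sources used here. The labels and the paper name different instruments and RNA preparations. Groups came from the titles, 0 columns were left without a cell, and 1 cell titled SAG carries a description of a PF plate and was counted as SAG. The cells came from pooled mice sorted into plates and amplified by PCR.

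Cells with at least 500 genes and 10000 reads were kept, which left 325 of 360, and no doublet caller was run on singly sorted wells. No 2 cells had identical counts. Counts were summed per plate and tissue and divided by reads other than Rn45s, with a pseudocount of 1 CPM for ratios. With 1 sample per tissue there was no test. The rule for tissue differences was tried on simulated counts with known fold changes and counting error only. Those counts held no differences between cells or between plates of a tissue, so they cannot show how the rule behaves with such differences. The genes, lists and comparisons were chosen with earlier results of these data known. Other genes were named where they belong to the sort, are partners or paralogs of a studied gene, are cell type markers a result turns on, or are the 3 most correlated with it; the Sox10 group of genes was added after values were seen, and some of its genes are not reported here. Gene positions and exon lengths came from GENCODE vM1 on NCBIM37 (mm9). Python 3.11.15 with numpy 2.4.6, pandas 2.3.3, scipy 1.17.1 and matplotlib 3.10.9 was used, and R 4.3.3 with edgeR 4.0.16 for TMM factors only. 16 other settings were tried, 15 of them planned, among them the cells of plate 1 or of plate 2 alone.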

Additional observations from a re-analysis of the deposited data

Results flagged for a closer look

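Of the 35 cells left out for few genes or reads (14 PF, 8 SAG, 6 COR and 7 GP, with 17 to 1890073 reads and a median of 764), 7 had a read of at least 1 of the 10 genes, which is a signal in cells outside every comparison above. Nt5e was read in 2 of them with 669 reads, Prrx1 in 2 with 496, Cxcl12 in 2 with 12, and Pdgfra, Mcam and Pdgfrb in 1 each with 29, 8 and 3 reads. Ctsk, Lepr, Pdpn and Ly6a had 0 reads in these cells.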

How the results depend on the processing

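No paired analysis was possible because the results come from no test. The number of the 10 genes past the rule stayed within 1.5 times its value in 55 of 72 recomputations. With the cells of plate 1 or plate 2 only, where 1 comparison of plates remains and the rule asks for the fold alone, it moved most. On plate 1 it was 4 for PF against COR, 6 for PF against GP and 6 for COR against GP, and on plate 2 it was 4 for PF against COR, 10 for PF against SAG, 10 for SAG against COR and 3 for COR against GP. For SAG against GP it was 3 without SAG plate 2 and 3 with a filter of 1500 genes and 50000 reads, which kept 237 cells and 0 of SAG plate 2. For COR against GP it was 0 with Rn45s counted, 2 with TMM factors, 2 with the mean of per-cell CPM, 4 without the top cell of each gene and 2 without the cells with Sox10, an alternative chosen after seeing the data. For PF against GP it was 2 with the mean of per-cell CPM and 2 without the top cell, and for PF against COR it was 1 with a pseudocount of 10 CPM.

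With Rn45s counted, 3 log2 ratios that were past the rule changed sign, Pdgfrb to -0.79 in SAG against COR and to -0.75 in SAG against GP, and Pdgfra to -0.32 in SAG against GP. A further 7 that were not past it also changed sign, among them Pdgfra to 1.13 in PF against SAG and to -0.78 in SAG against COR, and the median of all genes shifted by 1.54 in PF against SAG, -1.53 in SAG against COR and -1.47 in SAG against GP. The split of higher and lower genes in PF against SAG was 5 and 1, with Rn45s counted 4 and 0, and with TMM factors 5 and 2. Of the 720 recomputed log2 ratios of single genes, 595 kept their side of the rule and, where not past it, moved by no more than the SD of their plate comparisons, 42 came past it, 37 fell out, 43 others moved by more and 3 that were past the rule changed sign. In all settings 48 ratios that were not past the rule also changed sign. The mean number of genes per cell was 2.96 in PF and 3.42 in COR with no cell filter, 3.47 in COR when 5 reads were required, and 3.56 in COR and 4.35 in GP on plate 1. The share of pairs above the product was 75% and lay between 69.2% and 95% in all settings. The share of all genes past the rule, 12.1% to 31.1% over the 6 comparisons, was 42.3% to 48.4% with plate 1 only, 26% to 78% with plate 2 only, 6.78% to 16.1% with no filter on genes and 5.25% to 23.1% with a pseudocount of 10 CPM. The cause of the other changes was not tested. The number of cells limits the shares on plate 1 of COR and GP, with 16 and 20 cells.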
